A study of Mus musculus with 4 samples.

Results

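The nuclear genes of oxidative phosphorylation were examined in tumor organoids from intestinal polyps of ApcMin mice, which are heterozygous for the Min allele (ApcMin/+). The rule took every probe whose gene symbol starts with Ndufa, Ndufb, Ndufc, Ndufs, Ndufv, Sdha to Sdhd, Uqcr, Cox4 to Cox8 or Atp5. It found 80 probes for 79 genes among 16631 named probes for 16446 genes, and only Ndufs5 had more than 1 probe. Of the 79 genes, 75 encode subunits, with 33 in complex I, 4 in complex II, 7 in complex III, 16 in complex IV and 15 in complex V. The other 4 match the rule by the start of the symbol but are not counted as subunits. Ndufaf1 assembles complex I, Cox7a2l acts in supercomplexes, Atp5s (Dmac2l) is known as factor B, and Cox4nb (Emc8) belongs to a complex of the endoplasmic reticulum. Ndufa4, first counted to complex I, was placed in complex IV, where it is now assigned.

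RNA of 4 organoid cultures was hybridized to Toray arrays in 1 color (Cy5), 1 array a group. All cultures carried the Apc mutation and grew in Matrigel with EGF and Noggin, without serum. The treated culture had 1 μM 5-Aza-CdR, a cytidine analog that blocks DNA methyltransferases, in the medium for 24 hours and was taken at day 4. Its control was the untreated culture. The Dnmt1 knockdown culture carried a lentiviral shRNA against Dnmt1 and was taken at day 9 after infection, and its control carried the empty lentiviral shRNA vector. Infected organoids had been selected with puromycin, so the control shRNA culture differed from the untreated control in virus and selection. The day on which the untreated control was taken is not given, so time in culture may differ too. Virus, selection and time cannot be told apart. How many mice gave the organoids is not given in the sources used here. With 1 array a group, a difference between arrays has no error from replicates, and none was tested.

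The respiratory chain passes electrons from NADH (complex I) and from succinate (complex II) through coenzyme Q, complex III and cytochrome c to oxygen at complex IV. Complexes I, III and IV pump protons across the inner mitochondrial membrane, and complex V, the ATP synthase, uses their return to make ATP. Most subunits are encoded in the nucleus, some in mitochondrial DNA, and several subunits of complex IV and of the c ring of complex V have isoforms from separate genes. In the intestine the chain is known to be active in stem cells and in absorptive cells. Many promoters of these genes are known to hold sites for NRF1, a transcription factor whose binding is blocked by DNA methylation.

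CpG dinucleotides are the sites that DNMT1 keeps methylated, so the promoters were inspected first. RefSeq windows (GRCm38.p6) from 250 bases before to 50 bases after the start were found for 65 of the 79 genes, 70 windows in all. The median window of these genes held 19 CpG dinucleotides, with a range of 2 to 43, and the median of all 32851 windows was 7. The observed-over-expected CpG ratio had a median of 0.825 in the windows of the 65 genes and 0.384 in all windows. Methylation itself was not measured on these arrays. The 250 bases upstream of Cox6b1 and Cox6b2, the ubiquitous and the testis isoform of subunit 6B of complex IV, are printed because Cox6b2 had the highest ratio after 5-Aza-CdR. Capitals mark CpG.
Cox6b1, chr7:30626115-30626364, minus strand: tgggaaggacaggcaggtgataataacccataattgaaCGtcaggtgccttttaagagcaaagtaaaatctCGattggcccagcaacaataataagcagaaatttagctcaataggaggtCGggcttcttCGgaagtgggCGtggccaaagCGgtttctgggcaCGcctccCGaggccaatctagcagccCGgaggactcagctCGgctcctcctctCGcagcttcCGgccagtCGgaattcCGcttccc
Cox6b2, chr7:4753095-4753344, minus strand: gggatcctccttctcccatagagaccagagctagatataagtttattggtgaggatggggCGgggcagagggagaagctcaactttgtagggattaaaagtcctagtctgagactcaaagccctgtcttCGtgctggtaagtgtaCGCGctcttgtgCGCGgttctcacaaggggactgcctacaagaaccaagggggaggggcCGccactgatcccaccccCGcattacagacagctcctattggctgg
The stretch of Cox6b1 held 14 CpG dinucleotides and that of Cox6b2 held 8. In the whole windows the observed-over-expected ratios were 0.807 for Cox6b1 and 0.432 for Cox6b2.

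The NRF1 motif (GCGC, any base, TGCGC), searched as all motifs on both strands, was present in 18 of 70 windows (25.7%) and in 4.60% of all windows. An ETS motif (ACTTCCGG), the core of GABPA sites, was present in 5 of 70 windows (7.14%) and in 3.89% of all. A YY1 motif (AAGATGG, then CGG) was present in 5 of 70 (7.14%) and in 0.852% of all. In 0 windows of these genes did matches of different motifs overlap. A match describes the letters only. The windows were not matched in CpG content (medians of 19 for these genes and 7 for all), and each motif itself holds CpG. The stretches below show NRF1 matches upstream of 6 genes whose values follow, with the match in capitals.
Sdha, chr13:74350241-74350265, minus strand: cccgcgcgactcggtGCGCAAGCGC
Sdhd, chr9:50603904-50603943, minus strand: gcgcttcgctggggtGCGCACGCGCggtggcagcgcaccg
Ndufa8, chr2:36049344-36049383, minus strand: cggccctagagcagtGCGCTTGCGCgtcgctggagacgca
Cox6a1, chr5:115349051-115349090, minus strand: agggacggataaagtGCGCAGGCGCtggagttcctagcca
Atp5g2, chr15:102671065-102671104, minus strand: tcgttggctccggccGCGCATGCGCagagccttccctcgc
Atp5c1, chr2:10080433-10080464, minus strand: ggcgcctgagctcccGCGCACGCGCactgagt
The 17 genes with an NRF1 match had a median log2 ratio of -0.10 after 5-Aza-CdR and of 0.05 with Dnmt1 knockdown. The 48 genes with a window but no match had -0.02 and -0.01.

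As a check of the samples, Dnmt1 was measured at an intensity of 126 with control shRNA and of 71.7 with Dnmt1 knockdown (log2 ratio -0.68), and of 239 in untreated organoids and 368 after 5-Aza-CdR (0.39). The intensities are the values that the authors deposited, spot signal above the blank spots with each array scaled to a median of 25. All 7 epithelial markers with a named probe, among them Tacstd1 (Epcam), Vil1 and Cdh1, were detected on every array. Krt19 was dim, between 3.11 and 6.71. Krt20 (9030623C06Rik) had 3.24, 9.58, 92.09 and 27.4 in the order untreated, 5-Aza-CdR, control shRNA and knockdown. Of immune markers Ptprc and Cd3e lay below 5 where they were detected and Itgam was detected on no array, while Cd68 was detected on every array with 194, 178, 67.5 and 105.4 in the order untreated, 5-Aza-CdR, control shRNA and knockdown. The summed intensity of 6 mesenchymal markers was 2597 in the untreated control, 682 after 5-Aza-CdR, 60.1 in the control shRNA culture and 33.9 with Dnmt1 knockdown. Vim gave 2544, 560, 39.7 and 10.27 of these sums and Acta2 gave 12.07, 83.7, 2.27 and 2.88, so that Acta2 was higher after 5-Aza-CdR (log2 ratio 1.09) where Vim was lower (-2.06). Col1a1 stayed between 3.01 and 6.93. For 4 enterocyte markers the sums were 182, 131, 1550 and 1811, and for 4 stem cell markers 1092, 1000, 482 and 494. Fabp1 (83.7, 21.1, 995 and 1001) and Fabp2 (30.3, 27.4, 483 and 726) made the rise of the first, while Slc5a1 stayed between 68.0 and 83.9. Apoa1 had a deposited value only after 5-Aza-CdR (5.82). Lgr5 had 292, 203, 15.2 and 18.55. Between the controls the log2 ratio of Lgr5 was -2.42, of Ascl2 -0.34, of Olfm4 -0.07 and of Axin2 -0.04. The part of these marker differences in the values below was not tested. Fewer cells of a type and less RNA per cell cannot be told apart in such bulk samples.

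Of the 79 genes, 76 were detected on all 4 arrays. A gene was detected where its spot exceeded the blank spots' mean by more than 2 SD. Cox8c, the testis isoform of subunit 8, was detected on 0 arrays, and Uqcrq and Cox6b2 were each missed on 1 array. The signals of Uqcrq, Cox6b2, Cox8b and Cox8c lay within the 95th percentile of spots without probe on at least 1 array. Intensities above 100 on all 4 arrays were found for 67 of the 79 genes. The median intensity of the 79 genes was 2022 in the untreated control, 1829 after 5-Aza-CdR, 1163 in the control shRNA culture and 1212 with Dnmt1 knockdown. Levels in the infected cultures were thus lower in the deposited scale, in which the median log2 ratio of all detected genes between the controls also was below 0 (-0.50). The ratios that follow were therefore taken from spot signals after normexp background correction (offset 50) and quantile normalization, which gives the 4 arrays 1 distribution. Ratios of dim genes are drawn toward 0 by the offset.

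After 5-Aza-CdR, no gene of oxidative phosphorylation differed 2-fold from the untreated control. Of 78 detected genes 0 were higher and 0 lower by that limit, which a gene passes if it is also detected on the brighter array. Among all 15640 named and detected genes 0.927% were higher and 0.607% lower. The median log2 ratio of the 78 genes was -0.08, with an interquartile range from -0.21 to 0.04, and the median over all genes was -0.0033. Of the 78 genes 27 had a ratio above 0 (34.6%), against 48% of all. At 1.5-fold, 1 gene was higher (Cox6b2) and 2 were lower (Ndufb11 and Sdhb), with 2.58% and 2.37% of all genes past that limit.

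With Dnmt1 knockdown, again 0 of 78 detected genes passed the 2-fold limit in either direction, where 0.327% of 14393 detected genes were higher and 0.139% lower. The median log2 ratio was -0.0097, with an interquartile range from -0.11 to 0.10, and that over all genes was -0.00090. Of the 78 genes 35 (44.9%) had a ratio above 0, against 49.6% of all. At 1.5-fold, only Ndufa12 was higher, with 1.05% of all genes past that limit, and 0 were lower, with 0.848% of all. Of the 79 genes, 59 stayed within 1.25-fold in both treatments. This count includes undetected Cox8c and dim genes, whose ratios the offset draws toward 0, and the same count was not made over all genes. The shares within 1.25-fold in each single comparison are given below for bright genes.

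These counts depended on the local background, which was not subtracted. With it subtracted, 2 of 78 genes were 2-fold higher and 3 lower after 5-Aza-CdR, where 0.908% and 0.78% of all genes passed. The 2 were Uqcrfs1 (1.44) and Ndufs7 (1.05), and the 3 were Sdhc (-1.37), Ndufa1 (-1.24) and Cox7c (-1.03). With Dnmt1 knockdown 5 were higher and 12 lower, where 1.26% and 2.31% of all genes passed. The 5 were Ndufb4 (2.34), Ndufa2 (2.18), Ndufa8 (1.62), Ndufaf1 (1.53) and Cox8a (1.47). The 12 were Cox6c (-5.69), Ndufa4 (-1.96), Atp5c1 (-1.89), Atp5j (-1.66), Cox7a2l (-1.50), Uqcrfs1 (-1.49), Cox7a2 (-1.48), Cox4nb (-1.45), Ndufb8 (-1.29), Cox5a (-1.204), Cox4i1 (-1.19) and Atp5k (-1.03). The sign of the ratio turned in 25 of 78 genes after 5-Aza-CdR and in 24 with Dnmt1 knockdown. Single ratios below are therefore those without local background unless stated.

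**Figure D1:**
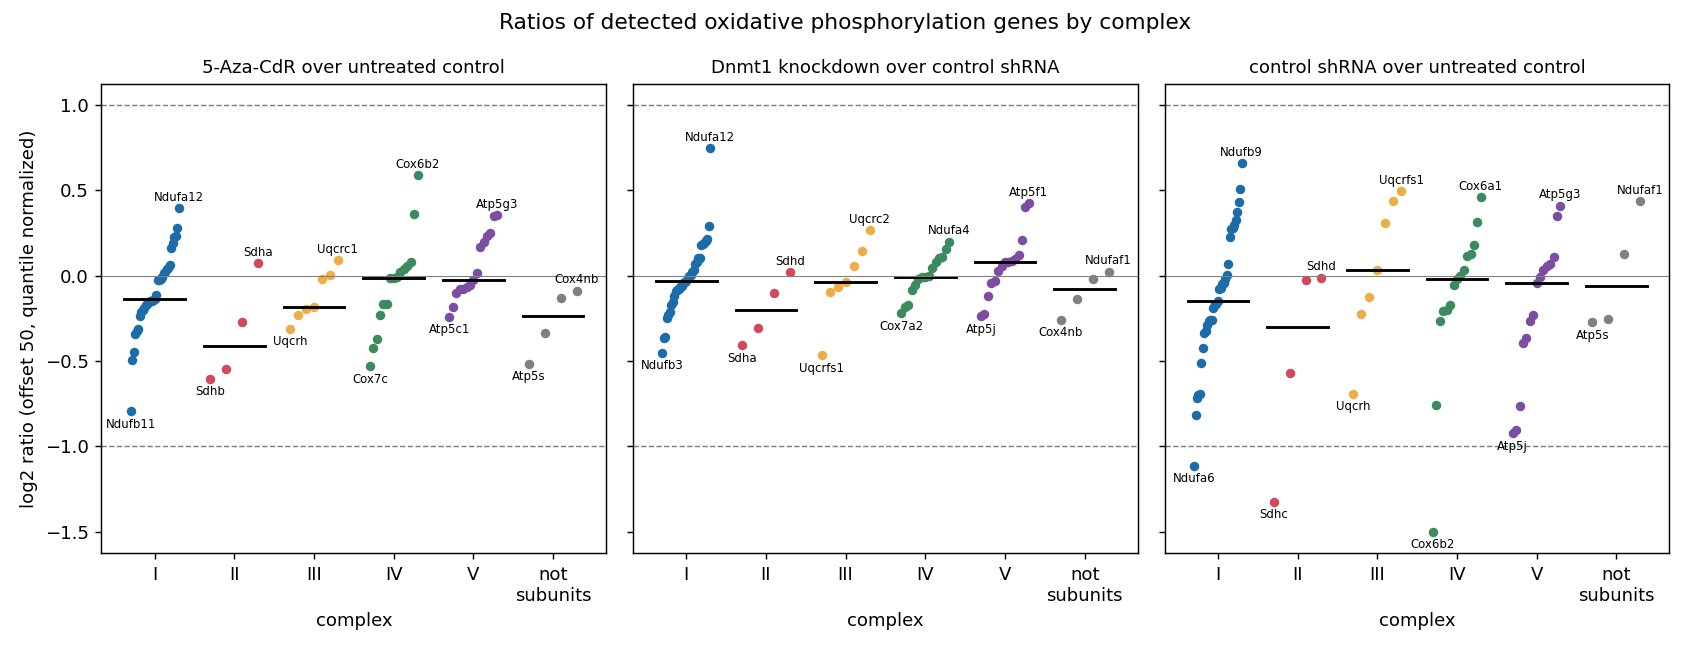
Log2 ratio of each detected gene (points, sorted within a complex) in the 3 comparisons, 1 array a group; black bars are medians, dashed lines mark 2-fold, and the lowest and highest gene of each class are named. No point passes 2-fold in the treatment comparisons, and Ndufa6, Sdhc and Cox6b2 do so between the controls.

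Brightness matters for this reading, since the offset holds dim genes near 0. Among genes above an intensity of 100 on all 4 arrays, 1.36% of 3377 were 2-fold higher and 1.21% lower after 5-Aza-CdR, and 0.444% and 0.148% with Dnmt1 knockdown. At 1.5-fold the shares of the 3377 were 4.5% and 5.12% after 5-Aza-CdR and 1.57% and 1.51% with Dnmt1 knockdown, and 0 and 1 of the 67 bright genes studied passed in the first and 1 and 0 in the second. A log2 ratio above 0 was found for 24 of the 67 after 5-Aza-CdR (48.9% of the 3377) and for 32 with Dnmt1 knockdown (46.1%). Of the 67 bright genes of oxidative phosphorylation, 53 (79.1%) lay within 1.25-fold of the untreated control after 5-Aza-CdR, against 69.0% of the 3377. With Dnmt1 knockdown 60 of 67 (89.6%) lay within 1.25-fold, against 85.1%. Between the controls it was 39 of 67 (58.2%), against 41.7%. The 90th percentile of the absolute log2 ratio was 0.38 for the 67 genes and 0.58 for the 3377 after 5-Aza-CdR, 0.33 and 0.39 with Dnmt1 knockdown, and 0.73 and 1.10 between the controls. In the quantile normalized values without local background subtraction, these 67 genes thus had the smaller share of large absolute ratios in each comparison. This is a description with no test, and these shares of bright genes were computed in no other setting. With 75th percentile scaling more of the detected genes of oxidative phosphorylation were 2-fold lower between the controls, as given below. The sets were not matched in brightness, since 39 of the 67 and 325 of the 3377 lay above 1000 on all 4 arrays. With the local background subtracted, the detected genes of oxidative phosphorylation passed 2-fold at a larger share than all named genes in each comparison. All named genes include dim ones that the offset holds near 0, so this difference cannot be told apart from one of brightness.

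**Figure D2:**
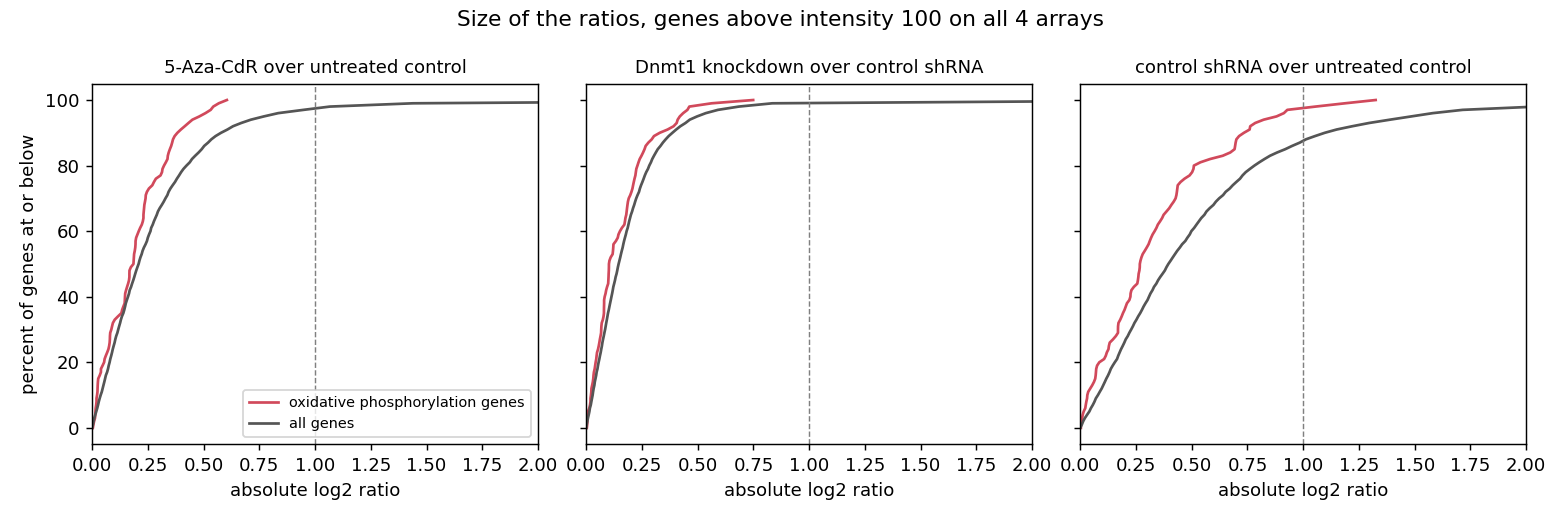
Cumulative share of genes (y axis, percent) by absolute log2 ratio (x axis, up to 2) for the 67 bright oxidative phosphorylation genes and for all 3377 bright genes, which include them; the dashed line marks 2-fold. The red curve reaches 100% at 0.60 after 5-Aza-CdR, 0.75 with Dnmt1 knockdown and 1.33 between the controls, and the grey curve goes on.

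In complex I, which oxidizes NADH, the median log2 ratio of 33 subunits was -0.14 after 5-Aza-CdR and -0.03 with Dnmt1 knockdown. Ndufa12, an accessory subunit of the matrix arm, had the highest ratio of the complex in both comparisons. Its intensity was 2462 in the untreated control, 3164 after 5-Aza-CdR, 1878 in the control shRNA culture and 3187 with Dnmt1 knockdown. The log2 ratios were 0.40 and 0.75, so each treated array lay above its own control. Across all other settings tried, the ratio of Ndufa12 with Dnmt1 knockdown ran from 0.64 to 0.93. Ndufb11, an accessory subunit of the membrane arm whose gene lies on chromosome X, had the lowest ratio after 5-Aza-CdR. Its intensity was 210 in the untreated control, 118 after 5-Aza-CdR, 115 in the control shRNA culture and 87.1 with Dnmt1 knockdown. The log2 ratios were -0.80 and -0.37, and the untreated control was the highest of the 4 arrays. With the local background subtracted the ratio after 5-Aza-CdR was -0.35.

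Of the core subunits of complex I, 6 had a probe and 0 passed 1.5-fold in either treatment. Ndufs1, which carries iron-sulfur clusters, had intensities of 228 in the untreated control, 229 after 5-Aza-CdR, 252 in the control shRNA culture and 219 with Dnmt1 knockdown. Ndufv1, which binds NADH, had 587, 661, 574 and 511 in the same order. Their log2 ratios were -0.15 and -0.23 for Ndufs1 and 0.02 and -0.21 for Ndufv1. The other 4 core subunits, Ndufs3, Ndufs7, Ndufs8 and Ndufv2, had ratios from -0.21 to -0.15 after 5-Aza-CdR and from -0.08 to 0.08 with Dnmt1 knockdown. Ndufb3, an accessory subunit of the membrane arm, had the lowest ratio of the complex with Dnmt1 knockdown (-0.45) and 0.01 after 5-Aza-CdR. Its intensities were 875, 947, 629 and 476. Ndufs5 was measured by 2 probes, which gave log2 ratios of -0.24 and -0.28 after 5-Aza-CdR and of 0.0056 and 0.04 with Dnmt1 knockdown. Over all genes with several detected probes the SD within a gene was 0.21 after 5-Aza-CdR (161 genes), 0.15 with Dnmt1 knockdown (136 genes) and 0.45 between the controls (151 genes). This SD is no replicate error, but it sets a scale for the sizes given here.

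Complex II oxidizes succinate and is also an enzyme of the citric acid cycle, and it has no subunit in mitochondrial DNA. Its 4 genes had the lowest medians of the 5 complexes, -0.41 after 5-Aza-CdR and -0.20 with Dnmt1 knockdown, over only 4 values. Sdhb, the iron-sulfur subunit, had intensities of 1012 in the untreated control, 683 after 5-Aza-CdR, 456 in the control shRNA culture and 438 with Dnmt1 knockdown. The ratios, again on the log2 scale, were -0.60 and -0.10. Sdhd, a membrane anchor, had 2661, 1795, 1608 and 1662, with ratios of -0.55 and 0.02. In the deposited intensities of both genes the untreated control was the highest of the 4 arrays. After normalization the ratio between the controls was -0.57 for Sdhb and -0.01 for Sdhd. Sdha, the flavoprotein, had intensities of 1476, 1652, 938 and 737, with ratios of 0.07 and -0.41, the highest of the complex after 5-Aza-CdR and the lowest with Dnmt1 knockdown. The ratio of Sdhb after 5-Aza-CdR was -0.07 once the local background was subtracted.

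In complex III, which passes electrons from coenzyme Q to cytochrome c, the 7 subunits taken by the rule had a median log2 ratio of -0.19 after 5-Aza-CdR. With Dnmt1 knockdown it was -0.04. Uqcrc1, core protein 1, had intensities of 2160 in the untreated control, 2328 after 5-Aza-CdR, 1791 in the control shRNA culture and 1917 with Dnmt1 knockdown. Its ratios were 0.09 and 0.05. Uqcrfs1, the Rieske iron-sulfur protein, had 1288, 1160, 1163 and 893, with ratios of -0.19 and -0.47, the lowest of all 79 genes with Dnmt1 knockdown. Its ratio after 5-Aza-CdR turned to 1.44 with the local background subtracted. Uqcrc2, core protein 2, had 3108, 2551, 2321 and 2841, with ratios of -0.23 and 0.27. Uqcrh, the hinge protein, had the lowest ratio of the complex after 5-Aza-CdR (-0.31) and 0.14 with Dnmt1 knockdown. The probe of Uqcrq gave intensities of at most 1.32, so its ratios near 0 say little.

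In complex IV, cytochrome c oxidase, 15 of 16 genes were detected, with median log2 ratios of -0.01 after 5-Aza-CdR and -0.0052 with Dnmt1 knockdown. Cox4i1, the ubiquitous isoform of subunit 4, had intensities of 7114 in the untreated control, 7183 after 5-Aza-CdR, 5224 in the control shRNA culture and 4606 with Dnmt1 knockdown. Its ratios were 0.08 and -0.17. Cox4i2, the isoform of lung that is known to be raised at low oxygen, had 99.15, 97.07, 54.9 and 66.7, with ratios of -0.16 and 0.11. The ratio of Cox4i1 with Dnmt1 knockdown was -1.19, past 2-fold, once the local background was subtracted. Cox5a had ratios of -0.37 and -0.0055 and Cox5b of 0.36 and 0.05, so these neighbors in the enzyme had opposite signs after 5-Aza-CdR. Cox7c, a small subunit, had the lowest ratio of the complex after 5-Aza-CdR (-0.53), with intensities of 6393 and 4117, and 0.10 with Dnmt1 knockdown.

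Cox6b2, known as the testis isoform of subunit 6B, had the highest ratio of all 79 genes after 5-Aza-CdR. Untreated organoids had an intensity of 79.5 and those given 5-Aza-CdR of 163, a log2 ratio of 0.59. In the control shRNA culture it was not detected, and with Dnmt1 knockdown its intensity was 1.39, just above the limit. The deposited values put the ratio after 5-Aza-CdR at 1.03 and the setting with the local background subtracted put it at 0.26. Cox6b1, the ubiquitous isoform, had 6441, 6283, 2206 and 2253, with ratios of 0.04 and -0.0052. The muscle isoform Cox6a2 (2.96 to 5.06) and the muscle isoform Cox8b (3.11 to 7.77) stayed dim on every array, and Cox8c was undetected. Their ubiquitous partners Cox6a1 and Cox8a had ratios of -0.01 and -0.17 after 5-Aza-CdR and 0.08 and 0.16 with Dnmt1 knockdown, and Cox7a2, the ubiquitous isoform of subunit 7A, had 0.02 and -0.22. Ndufa4 had the highest ratio of the complex with Dnmt1 knockdown (0.20) and 0.06 after 5-Aza-CdR, and both turned with the local background subtracted, to -1.96 and -0.22.

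**Figure D3:**
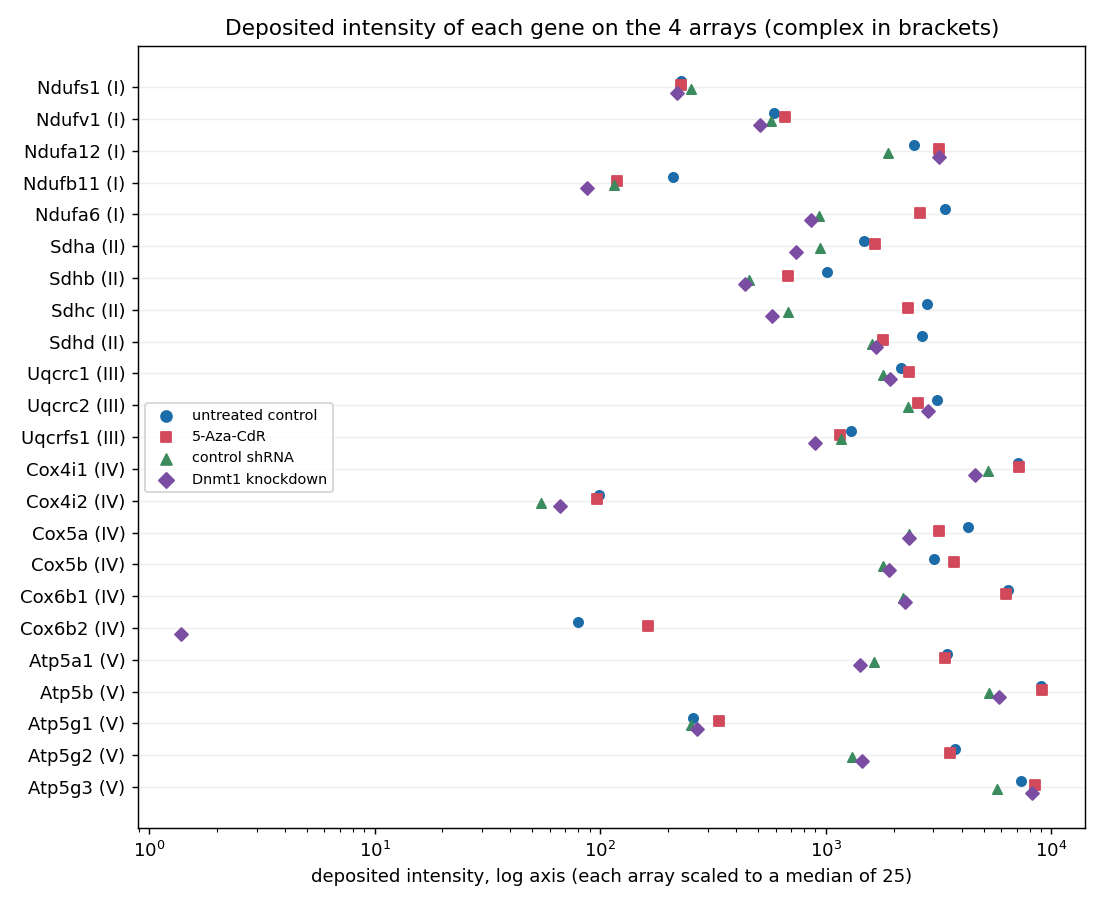
Deposited intensity (log axis) of 23 genes on each of the 4 arrays, 1 point an array; a missing point is an empty value. Most genes sit close together within each pair of arrays, and Cox6b2 is absent or near the limit in both infected cultures.

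In complex V, the ATP synthase, the median log2 ratio of 15 genes was -0.02 after 5-Aza-CdR and 0.08 with Dnmt1 knockdown. Atp5a1 and Atp5b form the catalytic head. Atp5a1 had intensities of 3458 in the untreated control, 3375 after 5-Aza-CdR, 1629 in the control shRNA culture and 1416 with Dnmt1 knockdown, with ratios of 0.02 and -0.22. Atp5b had 9013, 9121, 5307 and 5831, with ratios of 0.19 and 0.10. Atp5f1 (Atp5pb), subunit b of the peripheral stalk, had the highest ratio of the complex with Dnmt1 knockdown (0.42) and 0.35 after 5-Aza-CdR, from 3707, 4707, 2392 and 3198. Atp5c1, the rotating gamma subunit, had the lowest after 5-Aza-CdR (-0.24) and 0.08 with Dnmt1 knockdown, which turned to -1.89 with the local background subtracted. Atp5j, coupling factor 6, had the lowest with Dnmt1 knockdown (-0.24).

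Subunit c of the ATP synthase is encoded by 3 genes for the same mature protein. Atp5g3 had intensities of 7318 in the untreated control, 8451 after 5-Aza-CdR, 5753 in the control shRNA culture and 8239 with Dnmt1 knockdown. The ratios on the log2 scale were 0.36 and 0.40, so both treated arrays lay above their controls. With the local background subtracted its ratio with Dnmt1 knockdown was -0.03. Atp5g1 had 259, 335, 252 and 268, with ratios of 0.17 and 0.03. Atp5g2 had 3747, 3548, 1310 and 1445, with ratios of -0.05 and 0.08. After 5-Aza-CdR the order of Atp5g3 and Atp5g1 depended on scaling, with 0.18 and 0.24 under 75th percentile scaling and 0.21 and 0.37 in the deposited values.

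The 4 genes that encode no subunit had median log2 ratios of -0.23 after 5-Aza-CdR and -0.08 with Dnmt1 knockdown. Atp5s was the lowest of them after 5-Aza-CdR (-0.52), from intensities of 89.4 in the untreated control and 56.6 after treatment, and Cox4nb the lowest with Dnmt1 knockdown (-0.26), from 381 and 325. Cox7a2l had ratios of -0.34 and -0.14 and Ndufaf1 of -0.13 and 0.02.

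The treatment comparisons share no array. Over the 78 genes detected in both, 11 had ratios above 0 in both, 27 below 0 in both, 16 above 0 only after 5-Aza-CdR and 24 above 0 only with Dnmt1 knockdown. The sign was the same in 49.3% of the 67 bright genes and in 54.6% of all 3377 bright genes. Across the 78 genes, which are not independent replicates and share arrays and normalization, Pearson's r was 0.30 and Spearman's rho 0.15. For all bright genes these were 0.27 and 0.20. Ndufa12, Atp5f1 and Atp5g3 were the points highest in both, and Ndufb11 and Ndufb4 were low in both.

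**Figure D4:**
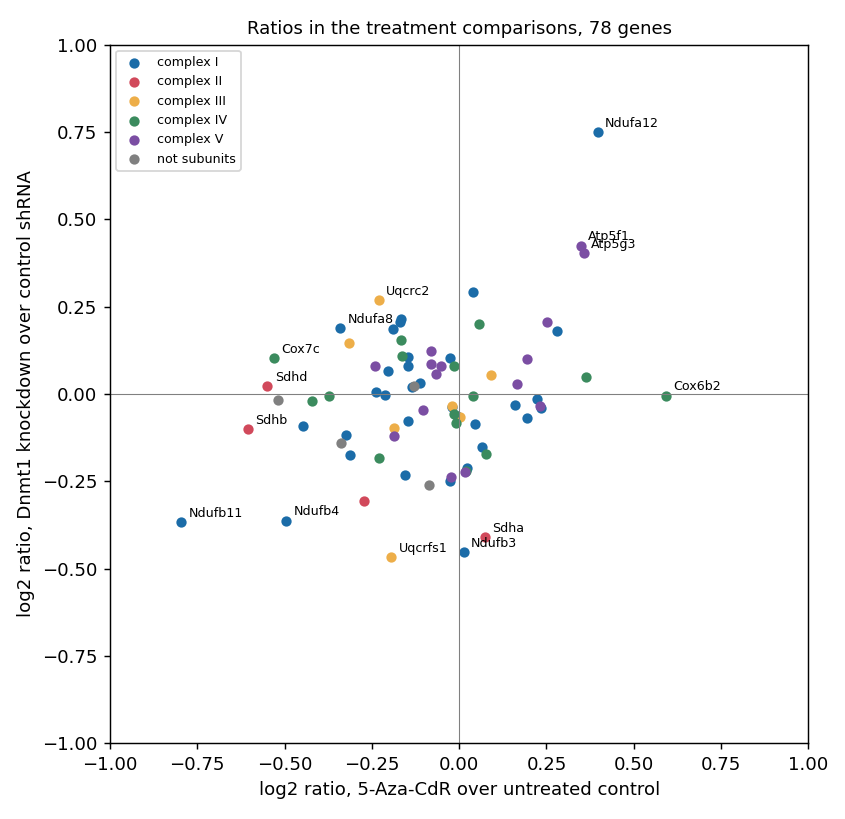
Log2 ratio with Dnmt1 knockdown (y axis) against that after 5-Aza-CdR (x axis) for 78 genes, colored by complex. Most points lie within 0.5 of the origin, Ndufa12 is at 0.40 and 0.75, and Cox6b2 is high on the x axis alone.

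Between the controls the differences were larger. The control shRNA culture was compared with the untreated control, and 0 of 78 genes were 2-fold higher and 3 lower, with 3.8% and 3.84% of 15141 detected genes. The 3 genes were Sdhc, Ndufa6 and Cox6b2. Sdhc, a membrane anchor of complex II, had intensities of 2812 in the untreated control, 2309 after 5-Aza-CdR, 678 in the control shRNA culture and 577 with Dnmt1 knockdown, a log2 ratio of -1.33 between the controls. Ndufa6, an accessory subunit of complex I, had 3391, 2608, 933 and 861, a ratio of -1.12. For both, each infected culture lay below each culture without virus. Cox6b2, undetected in the control shRNA culture, was at least 2.81-fold higher in the untreated control on the same scale, against the lowest signal detected there. With the local background subtracted the ratio of Ndufa6 was -0.47 and that of Cox6b2 -0.69, both within 2-fold, while 4 genes were then higher and 17 lower, with 3.32% and 3.78% of all genes past the limit, and 29 of 78 ratios turned in sign.

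At 1.5-fold, 12 of 78 genes were lower and 1 higher in the control shRNA culture, with 9.61% and 9.45% of all genes. The gene above was Ndufb9, a membrane arm subunit of complex I, with 1646, 1643, 1635 and 1783 and a ratio of 0.66. In the deposited values its log2 ratio was -0.01, so this call depended on the normalization. The 9 genes lower by 1.5-fold beyond the 3 named were Ndufa1, Ndufa11, Ndufb4 and Ndufb8 of complex I, Uqcrh of complex III, Cox6b1 of complex IV and Atp5g2, Atp5j and Atp5k of complex V. The median log2 ratio of the 78 genes was -0.06, of all genes -0.02 and of the 3377 bright genes 0.07. A ratio above 0 was found for 29 of the 78, against 45.7% of all genes, and for 27 of the 67 bright ones, against 55% of the 3377. Among the 3377, 6.43% were 2-fold higher and 6.01% lower, and 18.6% and 14.1% passed 1.5-fold, where the 67 counted 0 and 2, and 1 and 11. By complex the medians were -0.15 for complex I, -0.30 for complex II, 0.03 for complex III, -0.02 for complex IV and -0.05 for complex V. Scaling changed this picture. In the deposited values 20 genes were 2-fold lower, with a median of -0.76 for the 78 genes and -0.50 for all genes. With 75th percentile scaling it was 10 genes and a median of -0.34, with 0.15 for all genes. Counted over all genes without the detection rule, 4026 were 2-fold lower in the deposited values and 566 with 75th percentile scaling. In the main setting this count was 582. The untreated control enters this comparison and the one with 5-Aza-CdR, and the control shRNA culture enters it and, with opposite sign, the one with Dnmt1 knockdown, so these ratios are not independent.

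Related genes of the mitochondrion were listed with their counts. None of the 13 subunits encoded in mitochondrial DNA was matched by symbol, so they were not analysed here. Of 45 assembly factors 35 had a named probe, 0 passed 2-fold in either treatment, and the median log2 ratios were -0.04 after 5-Aza-CdR and -0.01 with Dnmt1 knockdown. Nubpl, which inserts iron-sulfur clusters into complex I, had the lowest ratio after 5-Aza-CdR (-0.61), and Acad9, an assembly factor of complex I, had the lowest with Dnmt1 knockdown (-0.70). Of 14 genes listed for cytochrome c and coenzyme Q, 0 passed, with medians of 0.01 after 5-Aza-CdR and -0.01 with Dnmt1 knockdown. The list also held Cyc1, cytochrome c1 of complex III, which the symbol rule did not take (0.0 and -0.03). Coq7, an enzyme of coenzyme Q synthesis, was the lowest in both (-0.47 and -0.33). Among 74 mitochondrial ribosomal proteins 0 passed either, with medians of -0.06 and 0.04. Their ratios ran from -0.98 (Mrps10) to 0.50 (Mrps24) after 5-Aza-CdR and from -0.35 (Mrpl50) to 0.61 (Mrpl2) with Dnmt1 knockdown. Of all named genes, 0.927% were 2-fold higher and 0.607% lower after 5-Aza-CdR, and 0.327% and 0.139% with Dnmt1 knockdown. At these shares a count of 0 in any list here says little.

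Genes listed for the citric acid cycle, which feeds NADH and succinate to the chain, had mostly ratios below 0 with Dnmt1 knockdown. The list also held Pdha1, Pdhb and Dlat of pyruvate dehydrogenase, pyruvate carboxylase (Pcx), and the cytosolic enzymes Aco1, Idh1 and Mdh1. Each of these had a ratio below 0 with Dnmt1 knockdown, from -0.50 (Pdha1) to -0.16 (Mdh1). Of 20 detected genes of 21 in the list, 0 passed 2-fold in either treatment, 3 had a ratio above 0 with Dnmt1 knockdown (49.6% of all genes), and the median was -0.27. After 5-Aza-CdR 6 were above 0 (48% of all genes), with a median of -0.06. Between the controls the median was 0.27 and 2 genes, Idh1 (1.64) and Dld (1.61), were 2-fold higher in the control shRNA culture (3.8% of all genes). The control shRNA array is shared by these last values and those with Dnmt1 knockdown. Idh3a, a catalytic subunit of mitochondrial isocitrate dehydrogenase, had intensities of 1217 in the untreated control, 872 after 5-Aza-CdR, 1347 in the control shRNA culture and 963 with Dnmt1 knockdown, the lowest ratio of the list with Dnmt1 knockdown (-0.55). Dlst, of the 2-oxoglutarate dehydrogenase complex, had 509, 792, 310 and 499 and the highest ratios, 0.46 and 0.60. Dlat, of the pyruvate dehydrogenase complex, had the lowest after 5-Aza-CdR (-0.81). Among 12 regulators of mitochondrial biogenesis 0 passed 2-fold in either treatment, with medians of -0.05 and 0.09. Tfb2m, a mitochondrial transcription factor, had the highest ratio after 5-Aza-CdR (0.30), Ppargc1a, a coactivator, the lowest (-0.19), Myc the highest with Dnmt1 knockdown (0.40) and Tfam, which packages mitochondrial DNA, the lowest (-0.24). Nrf1 itself had 72.7, 78.2, 58.3 and 68.6, with ratios of -0.06 and 0.08.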

How the data were processed

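The authors deposited a table of intensities, in which the mean of the blank spots had been subtracted and each array scaled to a median of 25, and dim values left empty. They also deposited the scanner intensity of each spot and its local background, for 1 array a group, from Toray 1-color (Cy5) arrays. The spot intensities were corrected with normexp (limma 3.58.1, R 4.3.3, offset 50) without local background, since the local background rose with the spot signal (correlation of logs 0.61 to 0.93 over the genes studied), and the 23473 probes were quantile normalized over the 4 arrays. Between 81.1% and 92.9% of probes were detected, above the blank mean plus 2 SD, the lowest and highest 5% of the 2736 blanks left out. The number of arrays limits the precision. Symbols came from the platform annotation. Where a gene had several probes, that with the highest mean log2 value was used. Calls needed a 2-fold difference. No model was fitted. Steps were tested on simulated data. The genes, lists and rules were chosen with earlier results of these data known.

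Named genes were all past 2-fold, the highest and lowest of each complex in each comparison, signature subunits and isoform pairs. Genes seen outside this rule are named for their values. The lists were assembly factors, cytochrome c and coenzyme Q, mitochondrial-DNA-encoded subunits, citric acid cycle, mitochondrial ribosomal proteins, biogenesis regulators and cell type markers. Of 79 symbols, 75 matched the RefSeq annotation directly and 4 by synonym. Alternatives comprised an offset of 16, the deposited values, 75th percentile scaling, quantile normalization within a comparison, the local background subtracted, a 1.5-fold limit, subunits only, the mean over probes, and genes detected on all 4 arrays. The comparison with genes above an intensity of 100 was added after the data had been seen. Python 3.11.15, numpy 2.4.6, pandas 2.3.3 and matplotlib 3.10.9 were used.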

Additional observations from a re-analysis of the deposited data

Results flagged for a closer look

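Ndufa8 and Uqcrc2 had ratios of opposite sign in the treatment comparisons, each larger than the SD between detected probes of a gene (0.21 after 5-Aza-CdR and 0.15 with Dnmt1 knockdown). Over bright probes alone (19 genes) the SD was 0.28 after 5-Aza-CdR, and the value of Uqcrc2 lay within it. For Ndufa8, an accessory subunit of complex I, the log2 ratio was -0.34 after 5-Aza-CdR and 0.19 with Dnmt1 knockdown. For Uqcrc2 of complex III it was -0.23 after 5-Aza-CdR and 0.27 with Dnmt1 knockdown. With 1 array a group the difference was not tested.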

How the results depend on the processing

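No paired analysis was possible because each group held 1 array. The count of 0 genes past 2-fold in either treatment was the same at an offset of 16, with 75th percentile scaling, with quantile normalization within the comparison, for subunits only, with the mean over probes and for genes detected on all 4 arrays. In the deposited values 1 gene was higher after 5-Aza-CdR. Of all genes, counted without the detection rule, 947 were higher there and 145 in the main setting. With the local background subtracted, 2 were higher and 3 lower after 5-Aza-CdR, 5 higher and 12 lower with Dnmt1 knockdown, and 4 higher and 17 lower between the controls. At a 1.5-fold limit 1 was higher and 2 lower after 5-Aza-CdR, 1 higher with Dnmt1 knockdown, and 1 higher and 12 lower between the controls. Between the controls 10 were lower with 75th percentile scaling and 20 in the deposited values, where the median fell to -0.76. That of all genes was -0.50 there. Counted over all genes in the same way, 566 and 4026 were lower in these settings, against 582 in the main setting. After 5-Aza-CdR the median of these genes lay below that of bright genes by -0.07 in the main setting, -0.03 with the local background subtracted, -0.16 with 75th percentile scaling and -0.19 in the deposited values. Against all genes it was 0.21 above with 75th percentile scaling. With Dnmt1 knockdown the difference from bright genes was between -0.02 and 0.01. With the local background subtracted the sign turned in 25, 24 and 29 of 78 genes after 5-Aza-CdR, with Dnmt1 knockdown and between the controls. The cause of these changes was not tested.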
